A study of Mus musculus with 4 samples.

Results

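The genes described here encode the proteasome: every gene whose symbol in the array's annotation begins with Psma, Psmb, Psmc, Psmd, Psme, Psmf or Psmg followed by a number. The interferon-inducible genes Psmb8, Psmb9, Psmb10 and Psme1 were left out by that rule. It took 41 of the 16593 genes measured, each read by its probe with the highest mean over the 4 arrays. Of these, 39 are subunits, activators or assembly chaperones of the proteasome, and Psmc3ip and Psme3ip1 carry the name of a subunit whose partner they encode. Psma8, Psmb11, Psmd3, Psmf1 and Psmg4 belong to the same families but were not analysed here. Whole-liver RNA came from untreated male mice of the C57BL/6 strain, 4 weeks old. The 2 WT samples had the genotype TAK1 flox without Cre, and the 2 TAK1 KO samples had the genotype Alb-Cre/ TAK1 flox. All 4 thus carry floxed TAK1, and Cre, driven by the albumin promoter and so active in hepatocytes, differs between the groups together with the deletion. Each sample was read on 1 Illumina array, the labels do not say whether samples came from separate animals, and p-values measure only the spread between these samples, which may be technical.

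The proteasome is the protease that destroys proteins tagged with ubiquitin. Its barrel-shaped core particle stacks rings of alpha subunits, which form the gate, on rings of beta subunits, some of which cut peptide bonds. A regulatory particle caps the barrel: a base with a ring of ATPases unfolds the substrate, and a lid removes the ubiquitin chain. Dedicated chaperones assemble both particles, and alternative activators can take the cap's place. The subunits are needed in every cell, their genes are known to be raised together by the transcription factor NRF1 (Nfe2l1) when proteasome activity falls short, and TAK1 signalling reaches the proteasome through NF-kB, whose inhibitor it degrades.

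The deposited values, already normalized between arrays, had median intensities of 81.5 to 81.9 units. Of 25697 probes 40.6% to 40.9% read above 100 units, the level taken here as the floor for a readable signal. Normalization makes such values alike, so they do not show whether the arrays were alike in depth of signal. The number of arrays, 2 per group, limits the precision of every value. Map3k7, which encodes TAK1, read 155 and 138.4 units on the WT arrays and 125.3 and 117.9 units on the TAK1 KO arrays, a TAK1 KO minus WT value of -0.26 ± 0.099 on the log2 scale (SE, n = 2 arrays each), short of the threshold in limma's moderated test (adjusted p = 0.116); whether its probe lies in the deleted stretch is unknown here, and the deletion is therefore not checked by it. Xist, an RNA of female cells, read 575 to 853.4 units on all arrays, and the Y-linked Eif2s3y and Kdm5d lay at 69.3 units or less. These values go against the label male in all 4 samples alike. The Y-linked Uty read 112.4 to 142.2 units, a little above the floor on every array, and so does not go against that label. All 9 hepatocyte markers read above 100 units on at least 2 arrays, although Alb itself read only 190.5 to 214.4 units on its probe. At an adjusted p of 0.05 in limma 0 of the 9 passed, where 18.2% of all genes and 36.7% of genes above the floor on at least 2 arrays did. At an unadjusted p of 0.05 in limma 5 of the 9 passed, 3 upward and 2 downward, where 28% of all genes and 52.3% of genes above the floor did. The list's summed intensity was 140250 and 142470 units in WT against 159810 and 167160 units in TAK1 KO. Rises and falls in the next lists are calls at that adjusted p, which 10.5% of all genes passed upward and 7.71% downward. Above the floor these shares were 20.8% and 15.8%. Of macrophage markers 7 of 8 rose in TAK1 KO and 0 fell, and the list's summed intensity was 4909.3 and 5651.9 units in WT against 10978 and 11836 units in TAK1 KO. Of stellate cell markers 8 of 10 rose (summed 9958.4 and 10719 units against 20572 and 24659), with Lrat below 100 units on every array, and of cell division genes 6 of 6 rose (1350.9 and 1358.7 units against 3191.1 and 4736.2). All 3 neutrophil markers rose (288.9 and 442.7 units against 931.5 and 1168.8), with Retnlg above 100 units on 1 array only. Of endothelial markers 1 of 6 fell. None of the 9 lymphocyte and 3 bile duct markers read above 100 units on 2 arrays, and of these Sox9 of the bile duct list passed upward at 67.3 and 74.2 units in WT against 104.4 and 95 units in TAK1 KO. The part of these cells in the differences below was not tested, and in whole liver fewer cells of a type and less RNA per cell cannot be told apart.

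Most proteasome genes differed little between TAK1 KO and WT liver, and those that differed did so in both directions. Of the 41 genes 5 rose (Psmd8, Psmc3ip, Psme3, Psmd7 and Psmc4), 1 fell (Psmc6) and 35 did not pass the threshold, an adjusted p of 0.05 in limma with Benjamini-Hochberg adjustment over all 16593 genes. That is 14.6% of them, where 18.2% of all genes passed (10.5% upward and 7.71% downward). The share of all genes takes in many genes below the floor. Among genes above 100 units on at least 2 arrays, 15.4% of the members passed, where 36.7% of all such genes did. The members' median log2 difference, TAK1 KO minus WT, was 0.042, beside -0.0036 over all genes, with 25 members above 0 and 16 below. Without Psmc3ip and Psme3ip1, 4 of 39 rose and 1 fell, with a median of 0.020. The counts rest on few arrays: 2 rises were called without WT replicate 1, without WT replicate 2 or without TAK1 KO replicate 2, and 7 without TAK1 KO replicate 1, while the falls numbered 0, 0, 2 and 2. With a background offset of 16 in place of 50, 2 rises and 0 falls were called. The median was -0.015 without WT replicate 1 and -0.022 without TAK1 KO replicate 2.

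**Figure D1:**
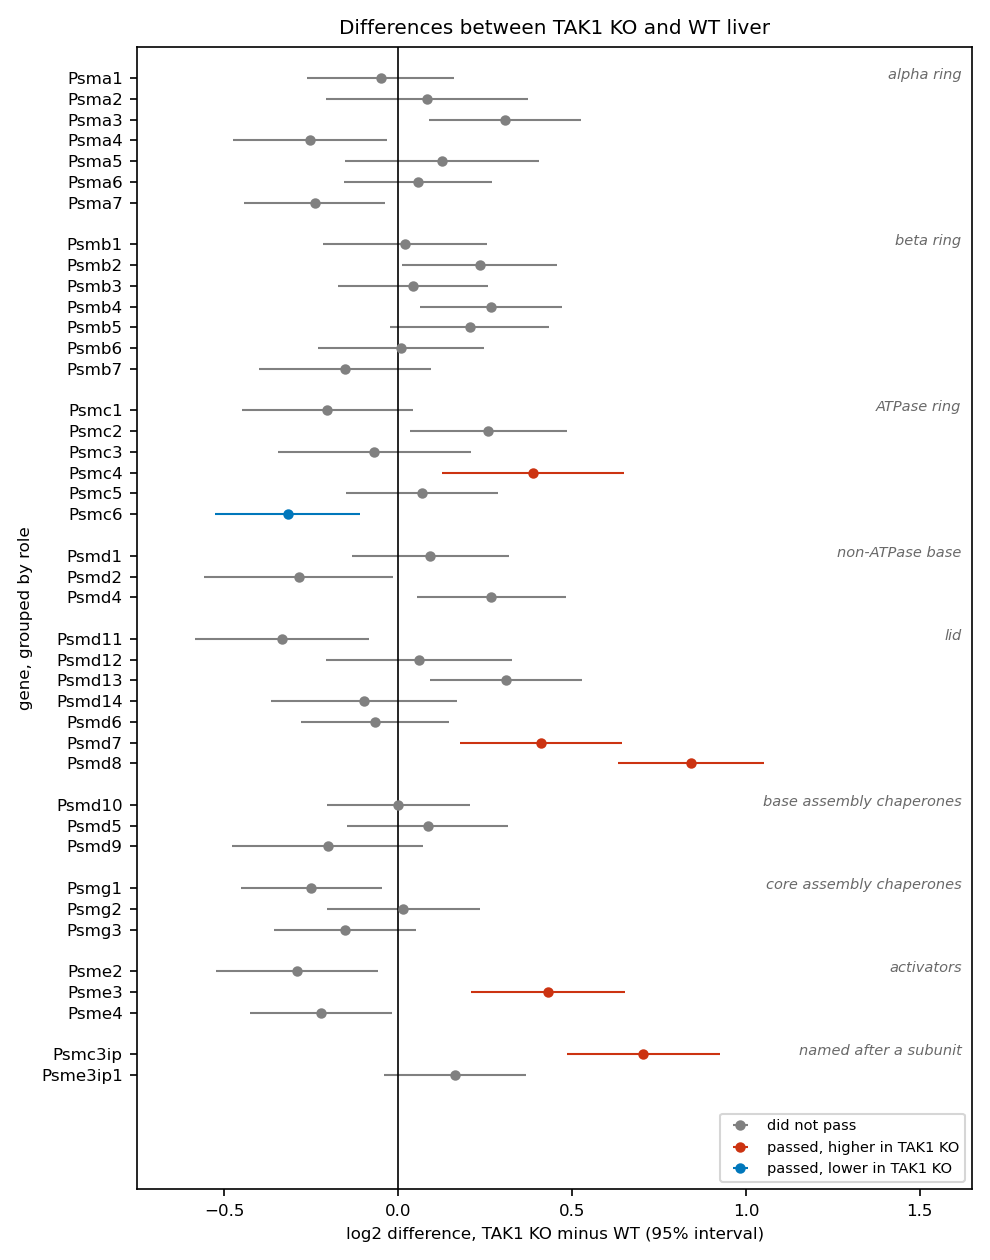
Log2 difference between TAK1 KO and WT liver for each of the 41 genes, grouped by role, with its 95% interval from limma (n = 2 arrays per group, not adjusted for the number of genes). Red points passed upward, the blue point passed downward and grey points did not pass; Psmd8 at 0.84 and Psmc3ip at 0.70 lie farthest from 0.

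Of the 41 genes 39 read above 100 units on at least 2 arrays; Psma1 and Psma6 did not do so on any. Among those 39, 15.4% passed, where 36.7% of the 7791 genes above the same floor did (20.8% upward and 15.8% downward). The arrays of the 2 groups did not overlap in 23 of the 39 (59%), where 71.7% of genes above the floor, and 53.7% of all genes, had groups that lay apart. A difference of 0.5 or more on the log2 scale, which is 1.41-fold, was seen in 2 of the 39 (5.13%), Psmd8 and the dim Psmc3ip, and in 24.6% of genes above the floor. Without Psmc3ip and Psme3ip1, which are not part of the proteasome, 13.5% of 37 genes above the floor passed and 1 differed by 0.5 or more. In 28 of the 39 the 95% interval of the difference, not adjusted for the number of genes, lay within 0.5 of 0 on both sides (71.8%), as it did in 51% of genes above the floor. These intervals hold for the probe used, on the log2 scale after the offset, and another probe of the same gene can lie outside, as in Psmd6 below. The median spread between arrays of a group was 0.087 on the log2 scale in the members and 0.10 over all genes above the floor. At an unadjusted p of 0.05, 19 of 41 members passed, 11 upward and 8 downward, where 28% of all genes did (52.3% of genes above the floor). These are descriptions of a list that was chosen with results of these data known.

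**Figure D2:**
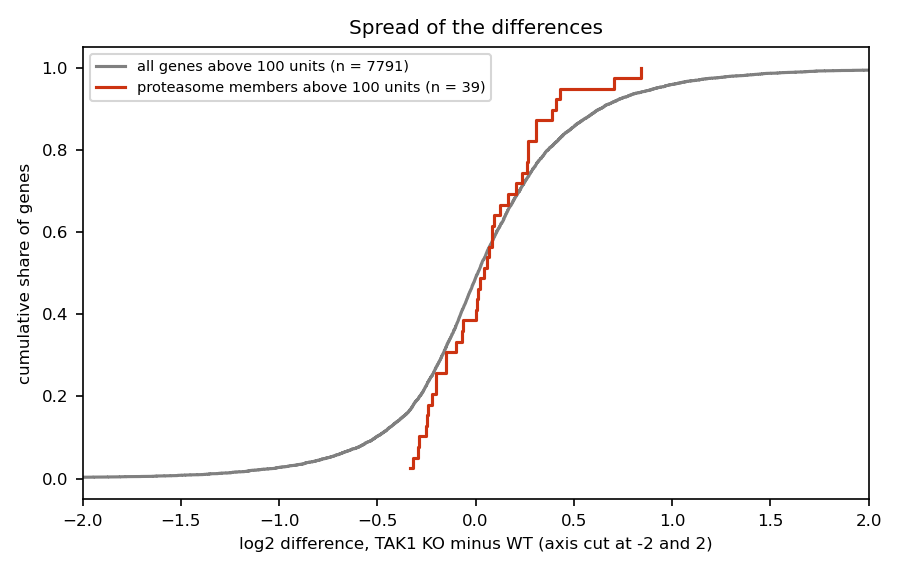
Cumulative share of genes (vertical axis) against the log2 difference between TAK1 KO and WT (horizontal axis, cut at both ends), for the 39 proteasome genes and the 7791 genes of the whole array above 100 units on at least 2 arrays. The proteasome curve stays between -0.33 and 0.84, while all genes spread more widely on both sides.

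In the lid, which holds the deubiquitinating centre of the regulatory particle, 2 of 7 measured subunits with Psm names rose and 0 fell. Their median log2 difference was 0.059. Over all genes 10.5% passed upward, and 20.8% of genes above the floor did. Sem1, a lid subunit outside these names, also rose and is given below. Psmd8, the subunit known from yeast to join the lid last and so complete its assembly, read 2038.7 and 2074.1 units on the WT arrays and 3558.2 and 3823.5 units on the TAK1 KO arrays. Both TAK1 KO arrays lay far above both WT arrays, which differed little from each other. The rise was 1.79-fold (log2 0.84 ± 0.093 SE, adjusted p = 0.000327), the largest difference among the 41, and 5.98% of the 7791 genes above the floor rose by more. Psmd8 passed under all 11 alternatives tried, at log2 differences of 0.79 to 0.89 and adjusted p from 6.8e-07 to 0.00889.

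Psmd7, the partner subunit of the lid's deubiquitinase, read 1533.9 and 1670.7 units on the WT arrays and 2002.7 and 2264.6 units on the TAK1 KO arrays. The groups did not overlap, and the rise was 1.33-fold (log2 0.41 ± 0.10 SE, adjusted p = 0.0227). It did not pass when WT replicate 1 (adjusted p = 0.163), WT replicate 2 (0.0717) or TAK1 KO replicate 2 (0.0843) was left out, with a background offset of 16 in place of 50 (0.102) or with the mean of both its probes (log2 0.27, 0.157). Psmd14, the deubiquitinase itself, read 1060.9 and 1084 units on the WT arrays and 895 and 1120.4 units on the TAK1 KO arrays. Its groups overlapped, and its difference of -0.098 ± 0.12 (SE) did not pass (adjusted p = 0.703). Whether the partners differ from each other was not tested.

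Among the other lid subunits, Psmd13 read 2427.1 and 2683.5 units on the WT arrays and 3118.5 and 3210.8 units on the TAK1 KO arrays (log2 0.31 ± 0.096 SE, adjusted p = 0.0568). It passed with quantile normalization (0.0472) and with the mean of all probes (0.0478). Psmd13 has 1 probe, so the mean of all probes left its difference at 0.31 and changed only other genes in the fit. Psmd11, which clamps the lid onto the core particle, read 450.2 and 459.6 units on the WT arrays and 327.3 and 395.9 units on the TAK1 KO arrays. Its groups lay apart in the opposite direction to Psmd13, at -0.33 ± 0.11 (SE, adjusted p = 0.0721), and it passed without TAK1 KO replicate 2 (log2 -0.47, adjusted p = 0.00611). Psmd12 and Psmd6, structural subunits of the lid, overlapped between groups at 0.059 ± 0.12 and -0.065 ± 0.094 (SE).

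The promoter of Psmd8 is shown because its transcript changed most, beside those of Psme3, Psmc4 and Psmc6, which passed less firmly. Each sequence gives the 250 bases before the gene's start, 5′ to 3′ on the gene's strand, from RefSeq on GRCm38.p6. Capitals mark matches to TGACNNNGC, the core of the antioxidant response element that NRF1 and NRF2 are known to bind, or to CCAAT, the core of the NF-Y site, on either strand. Psmd8 and Psmc4 hold no match in these bases, Psme3 holds 1 CCAAT and Psmc6 holds 1 TGACNNNGC, both on the reverse strand.
Psmd8 (chr7:29180674-29180923, minus strand): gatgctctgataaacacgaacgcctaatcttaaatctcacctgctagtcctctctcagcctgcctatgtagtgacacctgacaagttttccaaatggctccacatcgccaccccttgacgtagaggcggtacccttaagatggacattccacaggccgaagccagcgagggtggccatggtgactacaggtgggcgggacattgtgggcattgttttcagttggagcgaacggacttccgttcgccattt
Psme3 (chr11:101315963-101316212, plus strand): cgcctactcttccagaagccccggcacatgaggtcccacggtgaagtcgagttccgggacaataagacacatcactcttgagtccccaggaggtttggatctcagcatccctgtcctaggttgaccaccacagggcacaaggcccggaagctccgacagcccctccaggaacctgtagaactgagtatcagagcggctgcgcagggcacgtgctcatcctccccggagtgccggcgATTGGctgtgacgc
Psmc4 (chr7:28050093-28050342, minus strand): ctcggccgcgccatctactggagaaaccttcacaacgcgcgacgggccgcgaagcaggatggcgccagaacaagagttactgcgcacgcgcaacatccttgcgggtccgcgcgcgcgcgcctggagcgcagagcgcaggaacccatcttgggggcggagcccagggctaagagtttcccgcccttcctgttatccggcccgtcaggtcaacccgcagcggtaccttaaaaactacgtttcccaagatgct
Psmc6 (chr14:45329574-45329823, plus strand): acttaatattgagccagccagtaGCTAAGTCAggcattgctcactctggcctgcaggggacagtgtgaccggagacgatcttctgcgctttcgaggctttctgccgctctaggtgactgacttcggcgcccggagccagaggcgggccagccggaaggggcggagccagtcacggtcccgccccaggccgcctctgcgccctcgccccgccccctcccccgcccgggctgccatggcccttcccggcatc

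The ATPase ring, the motor that unfolds substrates, had 1 subunit up and 1 down of 6, with a median difference of 0.00026. Of all genes 10.5% passed upward and 7.71% downward (20.8% and 15.8% of genes above the floor). Psmc4 read 3233.4 and 3124.1 units on the WT arrays and 3744.6 and 4622.5 units on the TAK1 KO arrays, with TAK1 KO replicate 2 well above replicate 1 and both above WT. It rose 1.31-fold (log2 0.39 ± 0.12 SE, adjusted p = 0.0476). Without TAK1 KO replicate 2 the difference was 0.24 (adjusted p = 0.255), and it did not pass without WT replicate 1 (0.169) or WT replicate 2 (0.232), with an offset of 16 (0.148), with no background correction (0.0534) or with the mean of all probes per gene (0.0530). Psmc4 has 1 probe, so the mean of all probes left its difference at 0.39 and changed only other genes in the fit. Psmc6 read 289.6 and 295.8 units on the WT arrays and 227.2 and 241.3 units on the TAK1 KO arrays, with both groups tight and apart. It fell 1.25-fold (log2 -0.32 ± 0.092 SE, adjusted p = 0.0428). It did not pass when WT replicate 1 (adjusted p = 0.149), WT replicate 2 (0.187) or TAK1 KO replicate 1 (0.149) was left out, with an offset of 16 (0.135), with a trended and robust variance prior (0.0819) or with the replicate number as a block (0.0514).

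Of the 4 other ATPases, Psmc2 read 5245.8 and 5153.7 units on the WT arrays and 5850.6 and 6623.9 units on the TAK1 KO arrays. Its groups lay apart at 0.26 ± 0.099 (SE, adjusted p = 0.118), and without TAK1 KO replicate 1 it passed (log2 0.35, adjusted p = 0.0488). Psmc1 read 1212.7 and 1274.1 units on the WT arrays and 989.4 and 1176.5 units on the TAK1 KO arrays, a difference of -0.20 ± 0.11 (SE) that did not pass (adjusted p = 0.278). Psmc3 and Psmc5 overlapped between groups, at -0.068 ± 0.12 and 0.069 ± 0.097 (SE). The subunits of the ring, which holds a single copy of each, had transcript differences from -0.32 to 0.39.

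The non-ATPase base subunits, which receive ubiquitinated substrates, had 0 of 3 past the threshold in limma and 2 of 3 at an unadjusted p of 0.05. The shares of all genes were 18.2% and 28% (36.7% and 52.3% of genes above the floor). Psmd4, a ubiquitin receptor, read 4529.2 and 4167 units on the WT arrays and 5139.9 and 5326.5 units on the TAK1 KO arrays (log2 0.27 ± 0.095 SE, adjusted p = 0.0910). Psmd2, which docks shuttle factors, read 202.7 and 229.9 units on the WT arrays and 195 and 159.3 units on the TAK1 KO arrays. Its groups were apart in the other direction (log2 -0.29 ± 0.12 SE, adjusted p = 0.154), and it passed without TAK1 KO replicate 1 (log2 -0.43, adjusted p = 0.0142). Psmd1, the scaffold of the base, overlapped at 0.092 ± 0.10 (SE).

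**Figure D3:**
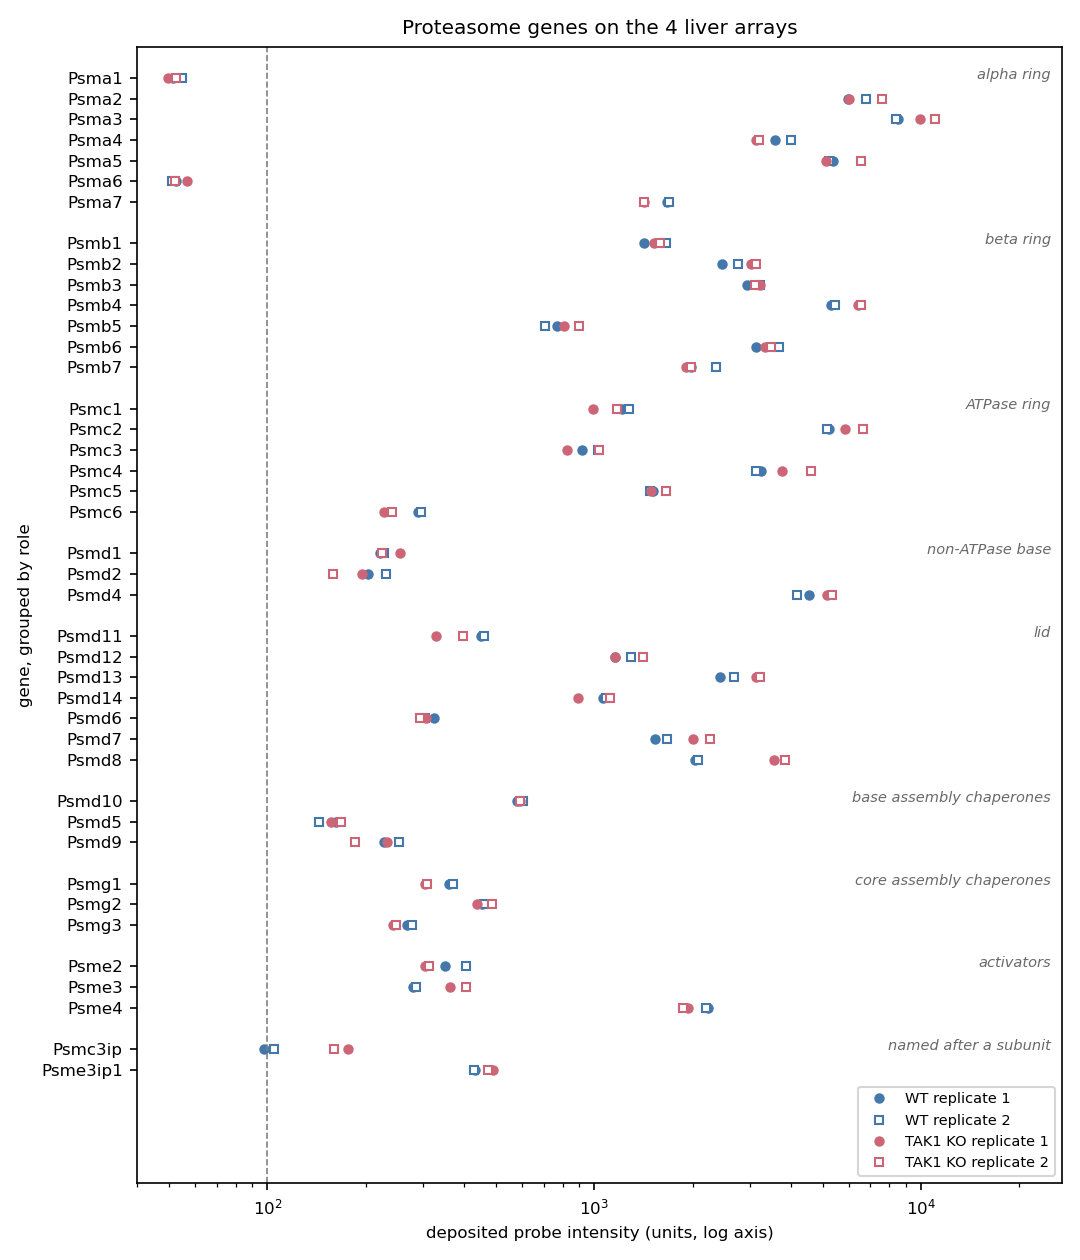
Deposited probe intensity of each gene on each of the 4 arrays, on a log axis, grouped by role; circles are replicate 1 and squares replicate 2, blue is WT and red is TAK1 KO, and the dashed line marks 100 units. The symbols of the groups lie apart in 23 of the 39 genes above the line, mostly by little, and Psmd8 stands out with TAK1 KO at 3558.2 and 3823.5 units against 2038.7 and 2074.1 units, and Psma1 and Psma6 lie left of the line. Positions along the axis also depend on each probe and do not rank the genes.

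None of the 14 measured core particle subunits passed the test in limma, and 5 of the 14 reached an unadjusted p of 0.05. Over all genes 18.2% passed and 28% reached that unadjusted p (36.7% and 52.3% of genes above the floor). In the alpha ring, which gates the barrel, Psma3 read 8520.3 and 8392.1 units on the WT arrays and 9923.1 and 11021.2 units on the TAK1 KO arrays, both TAK1 KO arrays being higher. Its difference of 0.31 ± 0.096 (SE, adjusted p = 0.0595) passed with quantile normalization (log2 0.36, adjusted p = 0.0272) and without TAK1 KO replicate 1 (log2 0.38, adjusted p = 0.0280). Psma4 and Psma7 lay apart in the other direction. Psma4 read 3564.3 and 3993.1 units on the WT arrays and 3131.6 and 3201.4 units on the TAK1 KO arrays (log2 -0.25 ± 0.098 SE, adjusted p = 0.123). Psma7 read 1666.8 and 1693.1 units on the WT arrays and 1423.5 and 1419.6 units on the TAK1 KO arrays (log2 -0.24 ± 0.089 SE, adjusted p = 0.109). Psma2 and Psma5 overlapped between groups at 0.084 ± 0.13 and 0.13 ± 0.12 (SE), and for both the brightest array was TAK1 KO replicate 2, at 7606.2 and 6541.6 units. Psma1 and Psma6 read 49.7 to 56.6 units on all arrays, below the floor in both groups, so no fold is given.

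In the beta ring the catalytic subunits Psmb5, Psmb6 and Psmb7, which carry the chymotrypsin-like, caspase-like and trypsin-like activities, differed by 0.21 ± 0.10, 0.0092 ± 0.11 and -0.15 ± 0.11 (SE). Psmb5 read 769.2 and 705.9 units on the WT arrays and 807.2 and 896.9 units on the TAK1 KO arrays, just apart (adjusted p = 0.230), Psmb6 read 3133.9 and 3667 units against 3338.5 and 3486.7 units, and Psmb7 1976 and 2359.3 units against 1904 and 1981.2 units. Psmb6 and Psmb7 overlapped between groups on these probes. Another probe of Psmb7, of similar brightness, lay apart at 2039.2 and 2355 units in WT against 1700.5 and 1835.7 units in TAK1 KO. Its difference was -0.31 ± 0.10 (SE) in a fit over all probes, and a dimmer probe of Psmb7 differed by 0.059. Of the structural subunits, Psmb4 read 5318 and 5450.3 units on the WT arrays and 6413.1 and 6536.4 units on the TAK1 KO arrays, tight in each group and apart (log2 0.27 ± 0.090 SE, adjusted p = 0.0784). The brightest probe of Psmb2 was also apart at 0.23 ± 0.098 (SE, adjusted p = 0.156). The next probe of Psmb2 lay apart in the other direction (log2 -0.12 ± 0.093 SE in a fit over all probes). It read 1907 and 1823.2 units on the WT arrays against 1657.6 and 1779.6 units on the TAK1 KO arrays. The mean of all probes gave 0.020 for Psmb2. Psmb1 and Psmb3 overlapped at 0.020 ± 0.10 and 0.042 ± 0.095 (SE). The immune counterparts of the catalytic subunits, which interferon induces, did not pass either: Psmb8, Psmb9 and Psmb10 differed by -0.090 ± 0.094, 0.015 ± 0.11 and 0.20 ± 0.12 (SE), and the activator subunit Psme1 by -0.070 ± 0.090 (SE), with adjusted p from 0.341 to 0.962.

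Assembly chaperones did not pass in any of 6 cases in limma, and 1 of the 6 reached an unadjusted p of 0.05. The shares of all genes were 18.2% and 28% (36.7% and 52.3% of genes above the floor). Psmg1, which pairs with Psmg2 to build the alpha ring, read 359.6 and 369.6 units on the WT arrays and 304 and 308.1 units on the TAK1 KO arrays, apart by -0.25 ± 0.090 (SE, adjusted p = 0.0978). Psmg2 overlapped, at 0.014 ± 0.097 (SE). Psmg3, another core chaperone, read 268.2 and 277.5 units against 241.6 and 248.4 units (log2 -0.15 ± 0.090 SE, adjusted p = 0.341). Psmd10, known as gankyrin, a base chaperone that is raised in human liver cancers, read 579.2 and 606.8 units on the WT arrays and 594.3 and 591.8 units on the TAK1 KO arrays. Its difference of 0.00033 had a 95% interval from -0.21 to 0.21. Of the other base chaperones, Psmd5 differed by 0.086 ± 0.10 and Psmd9 by -0.20 ± 0.12 (SE), and Psmd9 passed without TAK1 KO replicate 1 (log2 -0.36, adjusted p = 0.0431).

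Of the 3 measured activators that can replace the regulatory particle, 1 rose and 0 fell. Over all genes 10.5% rose and 7.71% fell (20.8% and 15.8% of genes above the floor). At an unadjusted p of 0.05 in limma all 3 passed, Psme3 upward and both Psme2 and Psme4 downward. Of all genes 28% reached that unadjusted p, and 52.3% of genes above the floor did. Psme3, which forms a nuclear activator that does not need ubiquitin or ATP, read 279.9 and 284.5 units on the WT arrays and 361 and 404.4 units on the TAK1 KO arrays. WT arrays were nearly equal and both TAK1 KO arrays higher, a 1.35-fold rise (log2 0.43 ± 0.097 SE, adjusted p = 0.0139). It did not pass when WT replicate 1 (adjusted p = 0.0967), WT replicate 2 (0.0836) or TAK1 KO replicate 2 (0.0520) was left out, or with an offset of 16 (0.0584). Psme2, which pairs with Psme1 in the interferon-inducible activator, read 350.7 and 405 units on the WT arrays and 302.6 and 312.1 units on the TAK1 KO arrays (log2 -0.29 ± 0.10 SE, adjusted p = 0.0894). Psme4, a large single-chain activator, read 2234.1 and 2202.6 units on the WT arrays and 1932.3 and 1872.7 units on the TAK1 KO arrays. Both of its TAK1 KO arrays were lower, at -0.22 ± 0.090 (SE, adjusted p = 0.143). The cell division genes counted above rose in the same samples as Psme3 and Psmd8, and their part in these rises was not tested.

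The remaining genes are named after a subunit but are not part of the proteasome. Psmc3ip encodes HOP2, a partner of meiotic recombinases, and read 97.9 and 104.8 units in WT, at the floor, against 176 and 160.4 units in TAK1 KO. Since it met the filter on dim genes through its TAK1 KO arrays and WT lay at the floor, no fold is given. It rose in the fit (log2 0.70 ± 0.097 SE, adjusted p = 0.00105) and passed under all 11 alternatives, at 0.64 to 0.95. Psme3ip1, which encodes a protein that binds the Psme3 activator, read 430.8 and 429 units against 490.3 and 473.7 units. It was apart between the groups but did not pass (log2 0.16 ± 0.090 SE, adjusted p = 0.299).

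The members also shared differences between arrays of 1 group. TAK1 KO replicate 2 read above TAK1 KO replicate 1 in 29 of the 39 genes above the floor (74.4%), where 50.1% of genes above the floor, and 49.9% of all genes, did, and WT replicate 2 above WT replicate 1 in 28 of 39 (71.8%, against 52%). Relative to each gene's mean in WT, the median over the 39 was -0.019 on WT replicate 1 and 0.019 on WT replicate 2, and -0.022 on TAK1 KO replicate 1 and 0.091 on TAK1 KO replicate 2. Over all genes above the floor the same medians lay between -0.0034 and 0.017. Psma2, Psma5, Psmc2 and Psmc4 were among the genes that read higher on TAK1 KO replicate 2 than on replicate 1.

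Of the 41 genes 16 had more than 1 probe, and in 12 another probe also read above 100 units on at least 2 arrays. Of these 14 other probes, 7 had a difference of the opposite sign to the brightest. The other probe of Psmd7 read 768.3 and 739.1 units on the WT arrays and 715.8 and 949.3 units on the TAK1 KO arrays, overlapping between groups, and its difference of 0.13 ± 0.13 (SE) did not pass in a fit over all probes (adjusted p = 0.656). The other probe of Psmd6 read 319.6 and 301.5 units on the WT arrays and 245.7 and 237.6 units on the TAK1 KO arrays, and it passed downward there (log2 -0.36 ± 0.091 SE, adjusted p = 0.0283) although the brighter one did not. The other probe of Psmd12 differed by -0.28 ± 0.095 (SE) where the brightest had 0.059. The probes of Psma7 agreed closely, at -0.24 and -0.27. The test of whether the brightest and next probe changed unequally passed in 0 of these 12 genes in limma and in 9.28% of 1832 such genes on the array, and the smallest adjusted p among the members was 0.0864, for Psmb2. Psmd8, Psme3, Psmc4, Psmc6 and Psmc3ip had 1 probe each, so their values have no second reading.

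**Figure D4:**
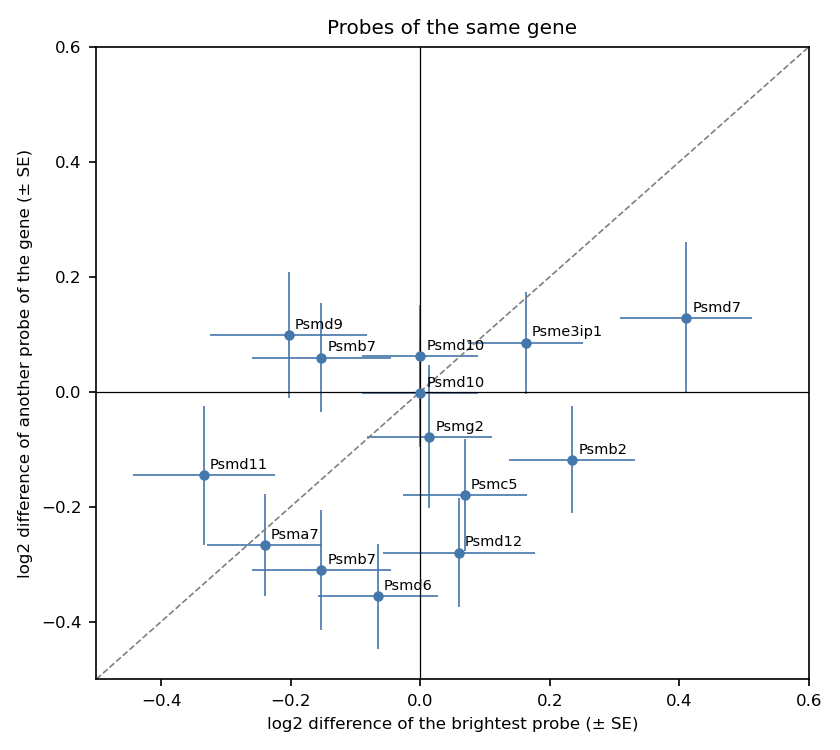
Log2 difference between TAK1 KO and WT of the brightest probe (horizontal axis) and of each other probe above 100 units (vertical axis) for the 12 genes with more than 1 readable probe, with bars of 1 SE; the dashed line marks equal change. Psma7 lies near the line, while the probes of Psmd7, Psmb2, Psmd12 and Psmd6 lie below it.

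Promoter windows, 300 bases with 250 before and 50 after the start, were found for 35 of the 41 genes in RefSeq (GRCm38.p6). TGACNNNGC occurred on either strand in 6 of the 35 genes (15.38% of their 39 windows), beside 12.39% of 32851 windows of all genes. CCAAT occurred in 14 of the 35 (35.9% of windows, beside 37.41%). The 6 matches to TGACNNNGC are shown because this element is the one through which NRF1 is known to act on proteasome genes; capitals mark the match, 5′ to 3′ on the gene's strand, so that a match on the other strand is printed as its reverse complement.
Psmb5 (chr14:54618024-54618052, minus strand): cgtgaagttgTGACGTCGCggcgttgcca
Psmb6 (chr11:70525338-70525366, plus strand): ctaaagagagTGACGGAGCgctttacgac
Psmd9 (chr5:123228149-123228177, plus strand): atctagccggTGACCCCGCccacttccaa
Psmc6 (chr14:45329587-45329615, plus strand): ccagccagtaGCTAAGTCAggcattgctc
Psmd12 (chr11:107479278-107479299, plus strand): tctGCTGTGTCAcatttgcccc
Psme4 (chr11:30771758-30771786, plus strand): cgctgcggctGCAGCGTCAccagaagagc
In Psmb5, Psmb6 and Psmd9 the match lay on the forward strand, at -47, -9 and -31 from the start, and in Psmc6, Psmd12 and Psme4 on the reverse strand. Of these 6 genes Psmc6 fell, at the limit described above, and the other 5 did not pass, with differences from -0.22 to 0.21.

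Among other genes of the ubiquitin-proteasome pathway, 29 of 41 listed were measured, and 3 rose and 1 fell, with a median difference of 0.011. That is 13.8%, beside 18.2% of all genes and 36.7% of genes above the floor. Uba6, Txnl1, Ubqln2, Ubxn4, Ngly1, Maff and Mafk read above 100 units on fewer than 2 arrays, and none of these passed. Zfand2a, a stress-induced protein that associates with the proteasome, read 342.2 and 373.3 units on the WT arrays and 625.2 and 619.6 units on the TAK1 KO arrays, tight in both groups. It rose 1.73-fold (log2 0.79 ± 0.094 SE, adjusted p = 0.000478) and passed under all 11 alternatives. Syvn1, the ubiquitin ligase of the endoplasmic reticulum's degradation pathway, read 4404.5 and 4296.7 units on the WT arrays and 6927.6 and 6305.5 units on the TAK1 KO arrays and rose 1.52-fold (log2 0.60 ± 0.095 SE, adjusted p = 0.00223), also under all 11. Sel1l, its partner in the membrane, read 1962.7 and 1510.2 units on the WT arrays and 1395.9 and 1125.5 units on the TAK1 KO arrays, lower in both TAK1 KO arrays, but did not pass (log2 -0.46 ± 0.15 SE, adjusted p = 0.0641).

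Sem1, a small lid subunit outside the Psm names, read 4629.9 and 4569.1 units on the WT arrays and 6369.3 and 5428.2 units on the TAK1 KO arrays. It rose 1.28-fold (log2 0.35 ± 0.10 SE, adjusted p = 0.0468). It did not pass when WT replicate 1 (adjusted p = 0.177), WT replicate 2 (0.206) or TAK1 KO replicate 1 (0.233) was left out, with an offset of 16 (0.166) or with no background correction (0.0538). Uchl5, a deubiquitinase on the regulatory particle, read 357.7 and 355.3 units on the WT arrays and 284.4 and 288.7 units on the TAK1 KO arrays. It fell 1.24-fold (log2 -0.31 ± 0.089 SE, adjusted p = 0.0414), and the call was lost on leaving out any 1 of the 4 arrays (adjusted p = 0.167 and 0.158 without WT replicates 1 and 2, and 0.104 and 0.0807 without TAK1 KO replicates 1 and 2) and under 4 other alternatives.

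The transcription factor gene Nfe2l1 read 874.4 and 1007.2 units on the WT arrays and 899.2 and 860.5 units on the TAK1 KO arrays, overlapping between the groups (log2 -0.093 ± 0.10 SE, adjusted p = 0.669). Pomp, the chaperone that matures the core particle, differed by 0.075 ± 0.093 (SE). Vcp, the ATPase that extracts ubiquitinated proteins from membranes and complexes, read 5918.1 and 5260.5 units on the WT arrays and 6782 and 6661.7 units on the TAK1 KO arrays (log2 0.27 ± 0.098 SE, adjusted p = 0.103). By list, subunits and helpers outside the Psm names had 2 of 9 up and 1 down, and NRF1 and its processing 1 of 8 up and 0 down. Extraction factors (0 of 7), shuttle factors (0 of 4) and ubiquitin-activating enzymes (0 of 1) had 0 calls in limma. At an unadjusted p of 0.05 these last lists had 1, 0 and 0. Over all genes 18.2% passed the threshold and 28% reached that unadjusted p (36.7% and 52.3% of genes above the floor). Uba6, the only measured ubiquitin-activating enzyme, read 61.2 to 66.9 units, below the floor on every array, so its lack of a call is no result about that list.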

How the data were processed

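RNA from whole liver was amplified to biotinylated cRNA and hybridised to 4 Illumina arrays, per the labels' protocols. The authors deposited linear probe intensity values that are already normalized between arrays; the sources used here do not name the method, and depth beyond the number of arrays is unknown. A second deposited table held 4 columns of intensities that could not be matched to a sample by name, and it was left out. Group and replicate number were read from each sample's title.

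Starting from the deposited intensities, limma's normexp (offset 50) corrected the background per array. Log2 values were fitted with limma 3.58.1 in R 4.3.3 (lmFit, eBayes, two-sided, 2 residual and 6.85 prior degrees of freedom) and adjusted over 16593 genes. Fold changes are on this scale, which understates the change of dim genes. Probes took their gene from the platform annotation, updated through gene identifiers to RefSeq (GRCm38.p6, with 11 identifiers unmatched), and 1719 of 25697 probes had no gene here. With 2 arrays a group, exact permutation could reach no p below 0.333 and was not used. The members, their roles, the other lists, the floor of 100 units and the motifs were chosen with earlier results of these data known. The test between probes of a gene and the counts without Psmc3ip and Psme3ip1 were added after the values were seen. The text names all members, Map3k7, Nfe2l1, the 4 genes the rule left out and pathway genes that passed or lacked 2 arrays above the floor. Sel1l, Pomp, Vcp and the sex-linked genes were chosen after their values were seen. Scripts were tested on simulated data. The labels name no batch. Probes of paralogs and pseudogenes may cross-hybridise.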

Additional observations from a re-analysis of the deposited data

How the results depend on the processing

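The results were recomputed under 11 other settings and, for the member counts, 1 chosen after seeing the data (without Psmc3ip and Psme3ip1). Over the named genes 491 values kept their direction and side of limma's threshold, 34 lost a call, 8 gained one and 26 changed sign, none of the 26 in a gene that had passed. Leaving out 1 array, which leaves a group with a lone sample assumed to vary like the other group, moved the rises among members between 2 and 7, the falls between 0 and 2, their median between -0.022 and 0.063, and the role groups with a call between 2 and 7 (4 with all arrays). Other pathway genes then numbered 2 to 3 up and 0 to 1 down, and all genes 1035 to 1875 up and 759 to 1429 down, lowest without a WT array. With an offset of 16, 2 members rose and 0 fell, in 2 role groups, and 0 pathway genes fell. The mean of all probes gave 0 falls among pathway genes, and a trended and robust prior 0 falls among members and pathway genes. With the replicate number as a block 5 members rose and 0 fell, and all genes gave 1758 rises and 1309 falls. The numbers pair nothing in the labels, and replicate differences in WT and TAK1 KO correlated at 0.0247 across 7791 genes; beside Psmc6 the block ended 1 call, that of Uchl5 (adjusted p = 0.0542). Psma1 and Psma6 have no value under the filter at 100 units.

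Signs changed only in genes that had not passed. With quantile normalization Psmd10 -0.015 was the log2 difference, and with the mean of all probes Psmc5 -0.055, Psmd12 -0.11, Psmg2 -0.032 and Psme1 0.015. Over the fits that leave out 1 array, the log2 differences ranged as follows: Psma2 -0.086 to 0.25, Psma5 -0.051 to 0.30, Psmb1 -0.089 to 0.13, Psmb3 -0.023 to 0.11, Psmb6 -0.10 to 0.12, Psmc3 -0.23 to 0.091 and Psmc5 -0.0066 to 0.14. The others were Psmd10 -0.032 to 0.033, Psmd12 -0.081 to 0.20, Psmd14 -0.26 to 0.063, Psmd5 -0.0040 to 0.18, Psmg2 -0.063 to 0.092, Nfe2l1 -0.19 to 0.0081 and Psmb9 -0.12 to 0.15. The cause of these changes was not tested. With 2 arrays per group, log2 differences near 0.3, as in Psma3 and Psmd13, lay at the limit of what passed.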
